A study of Rattus norvegicus with 12 samples.

Results

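Lungs of rats kept at simulated high altitude and given oxygen-enriched gas in short spells each day (group I3) were set against lungs of rats kept at laboratory altitude (group N). The comparison takes every I3 and N library, 6 of the 12 in the series, and 15435 of the 17254 transcripts listed, those whose value reached 1 FPKM in at least 3 of the 12 libraries. FPKM scales the fragments of a transcript by its length and by the number of fragments mapped in the library. All animals were adult rats of the strain labelled SD, and the tissue was whole lung. The N rats lived at 400 m in air with 21% oxygen. The I3 rats lived in a hypobaric chamber at 405 mmHg, which stands for about 5000 m, and breathed 42% oxygen for 3 h per day, split into intervals of a length not given in the sources used here. Both remaining groups, used for comparison and for the shared estimate of the spread, lived at the same simulated altitude and chamber pressure. H rats had no reoxygenation, and C3 rats breathed 42% oxygen for 3 h per day without a break. Exposure lasted 2 weeks in every group, and each group had 3 libraries. The study asked whether intermittent reoxygenation can prevent pulmonary hypertension of high altitude. I3 against N is the comparison that shows what differed from normoxia under that schedule. I3 differs from N in both altitude and gas. H against N differs in altitude, together with any other effect of living in the chamber. I3 against H differs in the gas at altitude, while no group breathed enriched gas at laboratory altitude.

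When oxygen falls, the enzymes that mark hypoxia-inducible factors for destruction slow down, and these transcription factors build up and switch on genes of sugar metabolism, blood vessel growth and red cell formation. In the lung, low oxygen also constricts small arteries. Over weeks the walls of these arteries thicken, which raises the pressure against which the right heart works. The table lists rat Ensembl transcripts and pairs none with a gene, and none of the 47357 genes in the reference table carries an Ensembl identifier. The changes therefore cannot be assigned to genes of these pathways, and lung markers could not be looked up to check the tissue. In whole lung, fewer cells of a type and less RNA per cell cannot be told apart.

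Sums of the listed values, which do not measure depth, lay between 337574 and 361337 per N library and between 329291 and 337387 per I3 library. Depth is unknown. Spearman correlations across transcripts were 0.90 to 0.91 within N, 0.90 to 0.92 within I3 and 0.88 to 0.91 between an I3 and an N library. Some libraries stood apart. On the first principal component (15.1% of the variance) N replicates 2 and 3 lay at -60.3 and -35.6, while N replicate 1 lay at -10.1 and the I3 libraries at 3.96 to 14.4. On the second (10.99%) I3 replicate 3 lay at -39.4 and the other I3 libraries at 10.5 and 22.5, and H replicate 3 lay at -36.4.

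Against N, 14 transcripts were called in I3, which is 0.0907% of those tested. Of these, 7 were higher and 7 lower in I3, 0.0454% of those tested in each direction, with a threshold of 0.05 on the Benjamini-Hochberg adjusted p of limma. They are ordered here by the size of the change on the log2(FPKM + 1) scale, as rises 1 to 7 and falls 1 to 7. On that scale the changes of low transcripts are understated. The plot of levels by library shows all 14. No called transcript had libraries of I3 and N that overlapped, but this was also true of 15.3% of all transcripts tested. After median ratio scaling of the libraries the calls were 11 higher and 7 lower. Single libraries moved the count of 14 by more than 1.5 times: it was 31 when N replicate 1 was left out, 9 when C3 replicate 1 was and 8 when C3 replicate 3 was, with 10, 8 and 8 of the 14 among them. A fit of I3 and N alone called 16, of which 4 were among the 14. Without N replicates 2 and 3 the calls numbered 43, of which 6 were among the 14. Without H replicate 3 and I3 replicate 3 they numbered 20, of which 10 were among the 14. Whether every library stands for its own rat is not stated in the labels, and the p-values thus rest on a spread between libraries that may be technical.

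**Figure D1:**
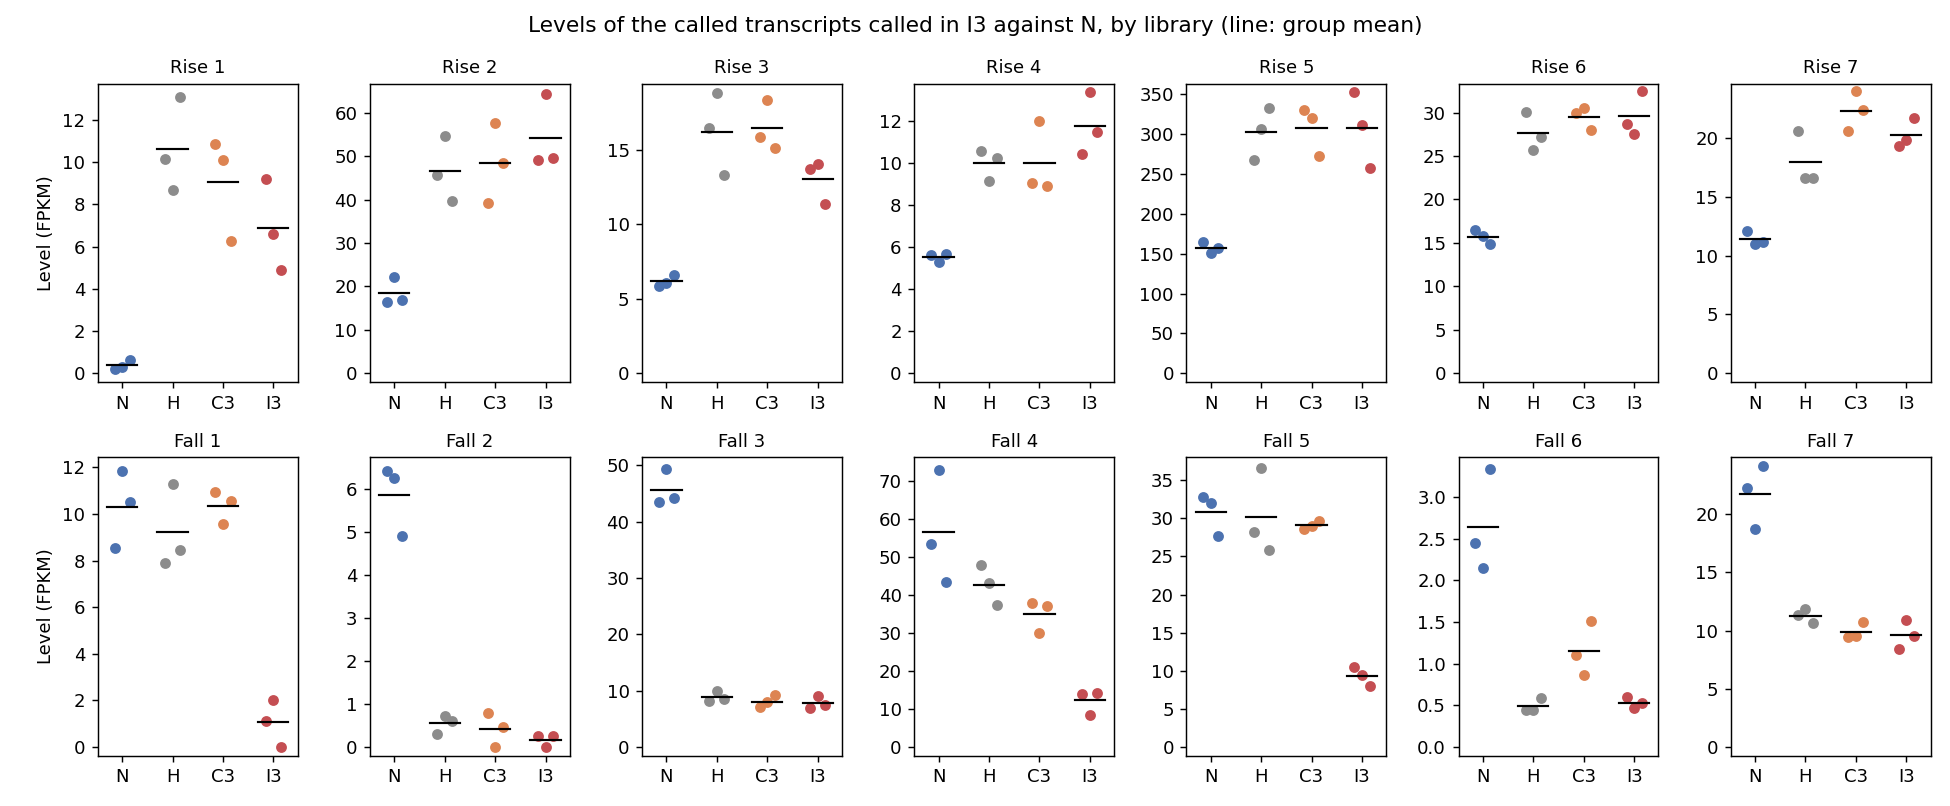
Level in FPKM (linear axis from 0) of each of the 14 called transcripts in the 12 libraries, points for libraries and a line for each group mean. In falls 1, 4 and 5 the I3 libraries lie below all 9 other libraries, while in the other 11 panels the H and C3 libraries lie on the same side of N as the I3 libraries. The N libraries that served to choose these transcripts are shared by all these comparisons, so nothing is read from that count.

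The largest called rise was from near 0 to a moderate level. ENSRNOT00000052288 (rise 1) read 0.21, 0.31 and 0.60 FPKM in the N libraries and 9.20, 6.59 and 4.89 in the I3 libraries. The lowest I3 library was thus far above the highest N library, although the highest I3 library held nearly double the level of the lowest. The means were 0.37 ± 0.20 FPKM in N and 6.89 ± 2.17 in I3 (SD, n = 3), an 18.4-fold ratio, with a log2 change of 2.49 ± 0.25 (SE; adjusted p = 0.00602, limma). Among the 15435 transcripts ordered by mean level it stood at place 15258 in N and at place 7993 in I3.

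ENSRNOT00000009811 (rise 2) was already well expressed in normoxia. It read 16.3, 22.1 and 16.9 FPKM in N and 49.1, 64.3 and 49.5 in I3. Every I3 library held more than double the level of the highest N library. The means of 18.5 ± 3.19 and 54.3 ± 8.69 FPKM (SD, n = 3) gave a 2.94-fold ratio and a log2 change of 1.51 ± 0.18 (SE; adjusted p = 0.017, limma). This call was lost without N replicate 3 (adjusted p = 0.0689, limma), without both N libraries that stood apart (0.0652) and with I3 and N as the only groups in the fit (0.0691).

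The other 5 rises were close to a doubling, with ratios of means between 1.78 and 2.13 and log2 changes of 0.78 to 0.96. Rise 5 was the most abundant of all 14 transcripts. It read 165, 151 and 157 FPKM in N and 353, 311 and 258 in I3, and it moved from place 300 to place 128 by mean level. Rise 6 had the narrowest error of the 14, at 16.4, 15.8 and 14.8 FPKM in N against 28.7, 27.5 and 32.4 in I3. Its log2 change was 0.87 ± 0.10 (SE; adjusted p = 0.0082, limma), and leaving out any 1 library did not end this call. A fit of I3 and N alone did (adjusted p = 0.11, limma). In rises 3, 4 and 7 the N libraries lay between 5.29 and 12.1 FPKM and the I3 libraries between 10.5 and 21.7. Rises 3, 4, 5 and 7 had adjusted p-values of 0.0355 to 0.0392 in limma. They lost their calls without N replicate 2 and without N replicate 3, when these were left out singly, with adjusted p-values of 0.0905 to 0.129 in limma. Other single libraries also ended calls: N replicate 1 (rises 3 to 5), H replicate 1 (rises 3 and 4), H replicate 2 (rises 4, 5 and 7), H replicate 3 (rise 4), C3 replicates 1 and 3 (all 4), C3 replicate 2 (rises 3, 5 and 7), I3 replicate 1 (rises 3, 5 and 7), I3 replicate 2 (all 4) and I3 replicate 3 (rises 4 and 7), with adjusted p-values of 0.0503 to 0.108 in limma.

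In 4 of the falls the H and C3 libraries lay below all N libraries as well, but not always at the level of I3. Fall 2, at 0.31 to 0.72 FPKM in H, and fall 6, at 0.86 to 1.51 FPKM in C3, lay above all I3 libraries there. ENSRNOT00000057190 (fall 2) read 6.42, 6.26 and 4.91 FPKM in N. In I3 it read 0.24 and 0.27 FPKM in replicates 1 and 3 and was listed at 0 in replicate 2, where a 0 can also be a failed estimate. A clearly measurable transcript was thus listed at 0.27 FPKM or less in every I3 library. By mean level it stood at place 8788 in N and at place 15357 in I3 among the 15435 tested. The log2 change was -2.55 ± 0.23 (SE; adjusted p = 0.00316, limma). With a pseudocount of 0.1 in place of 1 the call was lost (adjusted p = 0.0737, limma), and the filter at 5 FPKM left the transcript out.

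Fall 3 had the smallest adjusted p of all 14. It read 43.4, 49.3 and 44.3 FPKM in N and 6.97, 8.98 and 7.42 in I3. In these data the level in I3 was 17.1% of that in N, with little spread on either side. The log2 change was -2.41 ± 0.13 (SE; adjusted p = 5.71e-05, limma), and the adjusted p stayed at or below 0.00658 under all 21 alternatives run. Fall 7 read 22.3, 18.8 and 24.1 FPKM in N and 8.45, 10.9 and 9.56 in I3, so that the I3 mean was 44.4% of the N mean (log2 change -1.09 ± 0.12, SE; adjusted p = 0.0082, limma). The call of fall 7 was lost in a fit of I3 and N alone (adjusted p = 0.127, limma). It was also lost without H replicate 3 and I3 replicate 3 together (0.0513). Fall 6 was low throughout, at 2.15 to 3.33 FPKM in N and 0.47 to 0.60 in I3. Its call was lost without any 1 of the 12 libraries, and it was called under 3 of 20 alternatives (adjusted p = 0.0355 in limma as reported, 0.0168 to 0.195 over the alternatives).

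In the other 3 falls all I3 libraries lay below all 9 others, an arrangement found in 0.434% of the transcripts tested. The falls were chosen for low I3 libraries against N, so nothing is read from that share. ENSRNOT00000041915 (fall 5) read 32.8, 32.0 and 27.6 FPKM in N and 10.5, 9.42 and 7.94 in I3. In H it read 28.2, 36.6 and 25.8 FPKM, and in C3 28.7, 29.1 and 29.7. Each I3 library was below every one of the 9 other libraries, which lay in one band. The log2 change against N was -1.63 ± 0.14 (SE; adjusted p = 0.00277, limma) and was called under all 21 alternatives. The difference itself was tested as I3 minus H, -1.59 ± 0.14 (adjusted p = 0.00404, limma), and as I3 minus C3, -1.56 ± 0.14 (adjusted p = 0.00862, limma). In a fit of I3 and H alone the adjusted p of their difference was 0.0517 in limma, and leaving out any 1 library kept both differences below 0.05.

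ENSRNOT00000073643 (fall 4) read 53.3, 73.0 and 43.3 FPKM in N and 14.0, 8.54 and 14.2 in I3. The libraries of H, at 37.2 to 47.9 FPKM, and of C3, at 30.1 to 38.0, lay above those of I3. H overlapped N, while C3 lay below it. The log2 change of I3 against N was -2.12 ± 0.22 (SE; adjusted p = 0.0078, limma). In a fit of I3 and N alone that call was lost (adjusted p = 0.0969, limma). I3 was lower than H by a log2 difference of -1.75 ± 0.22 (adjusted p = 0.0437, limma). The difference from C3, -1.47 ± 0.22, did not pass (adjusted p = 0.195, limma), with a 95% interval of -1.97 to -0.97 before adjustment. The call against H was lost without any 1 of the H or C3 libraries, without N replicate 1 and without any 1 of the I3 libraries, with adjusted p-values of 0.0536 to 0.205 in limma. It was also lost with a pseudocount of 0.1 (adjusted p = 0.0559, limma), with no mean-variance trend (0.061), in a fit of I3 and H alone (0.0881), with the replicate block (0.169) and without H replicate 3 and I3 replicate 3 together (0.149).

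ENSRNOT00000061199 (fall 1) showed the largest change among the falls on the log2(FPKM + 1) scale. By the ratio of means the drop of fall 2 was larger, 34.5-fold against 9.78-fold for fall 1. Fall 1 read 8.52, 11.8 and 10.5 FPKM in N and 1.13, 2.02 and 0.01 in I3, so that I3 replicate 3 was almost without it. The libraries of H, at 7.89 to 11.3 FPKM, and of C3, at 9.57 to 10.9, overlapped those of N. The log2 change against N was -2.59 ± 0.33 (SE; adjusted p = 0.0218, limma). Neither difference from the other chamber groups passed, at -2.44 ± 0.33 for I3 minus H (adjusted p = 0.0546, limma) and -2.60 ± 0.33 for I3 minus C3 (0.0826). Without I3 replicate 3, the library farthest out on the second component, both passed in limma (adjusted p = 0.0173 and 0.0283), with differences of -2.00 and -2.16. Without I3 replicate 2 both passed as well (adjusted p = 0.0153 and 0.014, limma). The call against N was lost without N replicate 2 (adjusted p = 0.0987, limma), N replicate 3 (0.0764), C3 replicate 1 (0.0533) or C3 replicate 3 (0.0573). It was also lost with a pseudocount of 0.1 (adjusted p = 0.136, limma) and in a fit of I3 and N alone (0.176). Without N replicates 2 and 3 together, which leaves a lone N library, the log2 change was -2.35. Only this effect size is given here, and it does not stand for a kept call.

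**Figure D2:**
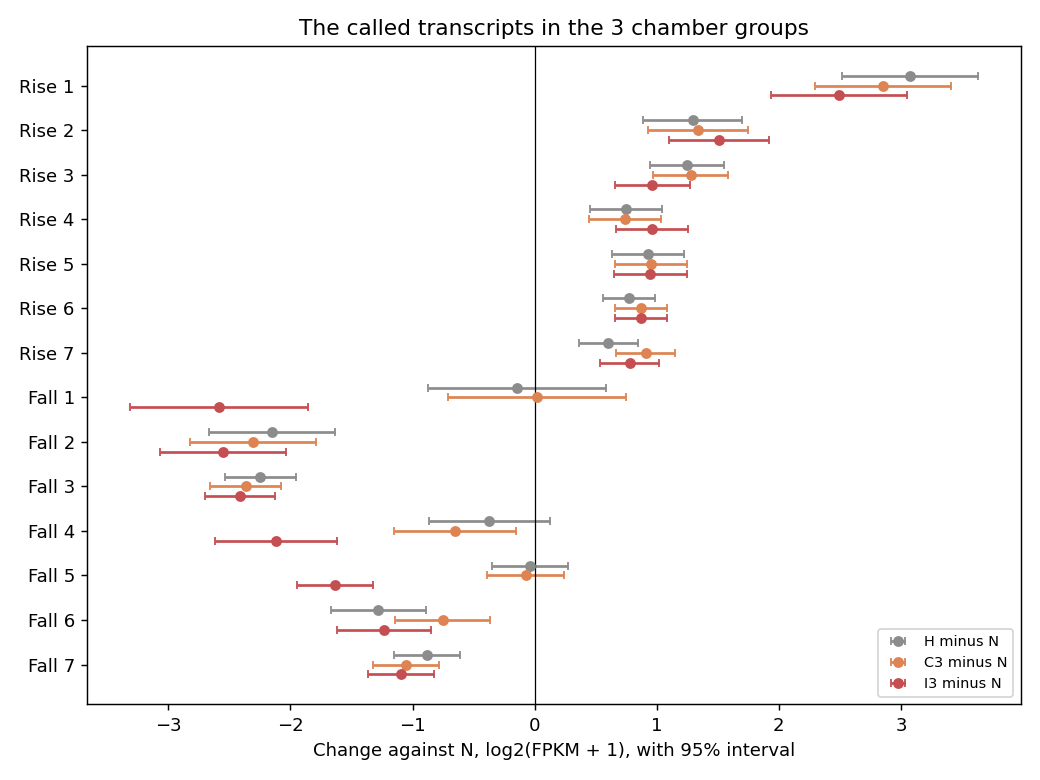
Change against N on the log2(FPKM + 1) scale for H, C3 and I3, with 95% intervals from limma (points: estimates; 14 rows, one per called transcript). The I3 points of falls 1, 4 and 5 lie at -2.59, -2.12 and -1.63, where those of H lie at -0.15, -0.37 and -0.04.

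The same 14 transcripts were read in the other chamber groups, as shown in the plot of changes against N. These groups share the N libraries with I3, so a chance value in N moves all of them, and the values are given side by side only. Rise 1 stood at 10.6 ± 2.24 FPKM in H, 9.07 ± 2.46 in C3 and 6.89 ± 2.17 in I3 (SD, n = 3). Its mean was thus lowest in I3, but I3 overlapped both other groups, and the difference of -0.58 from H, with a 95% interval of -1.14 to -0.02, did not pass the adjustment (adjusted p = 0.987, limma). Rise 2 went the other way by mean, at 46.7 ± 7.51 FPKM in H, 48.4 ± 9.21 in C3 and 54.3 ± 8.69 in I3. Fall 3 stood at 8.85 ± 0.98 FPKM in H, 8.07 ± 1.08 in C3 and 7.79 ± 1.05 in I3.

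Differences between the chamber groups do not involve N. Over the 11 transcripts other than falls 1, 4 and 5, I3 minus H lay between -0.58 and 0.22 on the log2 scale and I3 minus C3 between -0.48 and 0.22. None of these differences passed (smallest adjusted p, 0.987 against H and 0.704 against C3, limma). Their 95% intervals on the log2(FPKM + 1) scale reached from -1.14 to 0.62 against H and from -0.91 to 0.58 against C3. Differences up to these sizes are not excluded by the data. For low transcripts, whose changes this scale understates, larger ones are not excluded either. With a pseudocount of 0.1, I3 minus H was -1.41 for fall 2. Rise 3 and fall 6 lay without overlap between I3 and C3. Rise 3 was at 11.4 to 14.0 FPKM in I3 and 15.2 to 18.4 in C3, and fall 6 at 0.47 to 0.60 FPKM in I3 and 0.86 to 1.51 in C3. Of all 14, 2 differed between I3 and H (falls 4 and 5) and 1 between I3 and C3 (fall 5), where 0.0324% and 0.00648% of all transcripts tested were called. These transcripts were chosen with the I3 libraries, which are also in those differences, so nothing is read from that contrast of shares. I3 libraries were without overlap with H for 4 of the 14 and with C3 for 5, where 9.85% and 15.8% of all transcripts were.

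Called transcripts were not those with the largest changes overall. A log2 change of at least 1 in either direction was estimated for 688 transcripts, and 9 of them were called. Of the 679 not called, 294 were higher and 385 lower in I3, 384 had I3 and N libraries that overlapped, and 204 were listed at 0 in at least 1 of the 6 libraries. Their median SE was 0.71 on the log2 scale, against 0.14 for the called transcripts. The largest rise of all was in a transcript listed at 0 in all N libraries and at 159, 166 and 137 FPKM in I3. It was not called (adjusted p = 0.238, limma), and the other groups show a wide spread: it was at 0, 151 and 0 FPKM in H and at 16.9, 135 and 0 in C3. With I3 and N as the only groups in the fit, its adjusted p was 1.34e-05 in limma. The largest fall of all was in a transcript at 2.80, 155 and 90.7 FPKM in N and at 0.44, 0 and 0.36 in I3. N replicate 1 lay near the I3 libraries there, and the transcript was not called (adjusted p = 0.172, limma).

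**Figure D3:**
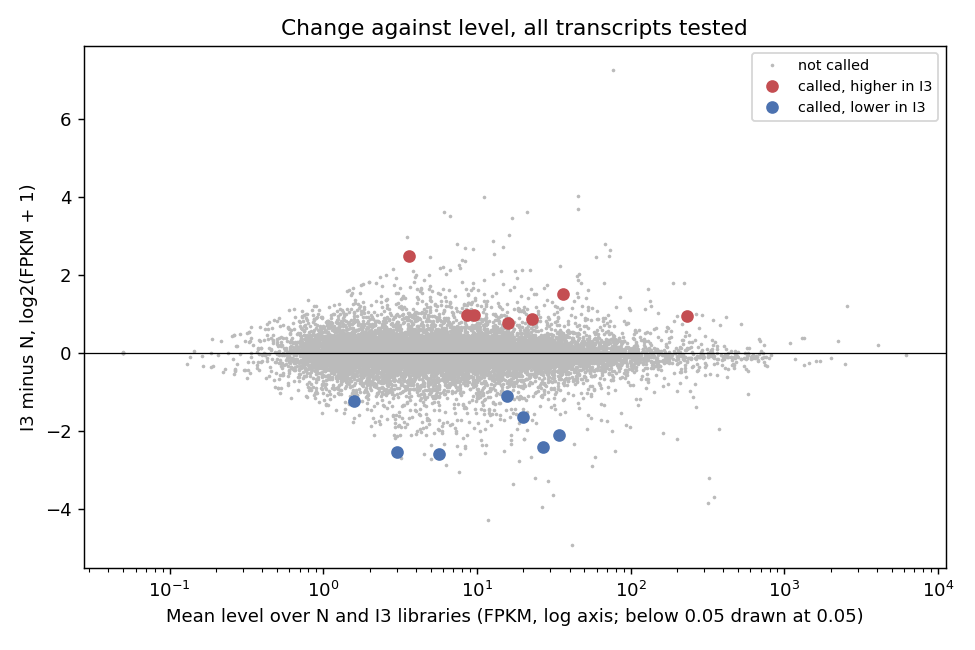
Change of I3 against N on the log2(FPKM + 1) scale (vertical axis) against the mean level over both groups (horizontal axis, FPKM, log scale) for the 15435 transcripts tested, with the 7 called rises and 7 called falls as large points. Many uncalled transcripts lie farther from 0 than the called ones.

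Most transcripts had an interval that bounded their change on the log2(FPKM + 1) scale, which understates the changes of low transcripts. These intervals rest on the same spread between libraries, which may be technical. The 95% interval of I3 minus N, before adjustment, lay wholly within 1 log2 unit of 0 for 10907 transcripts (70.7%) and within 0.5 for 4688 (30.4%). Of the 2737 transcripts below a mean of 2 FPKM, 56.7% lay within 1, although their fold changes are hardly bounded. The middle of the distribution was narrow, with a median of -0.02, quartiles of -0.20 and 0.17, with the 5th percentile at -0.72 and the 95th at 0.64. At an unadjusted p below 0.05, 693 transcripts were higher and 981 lower in I3, 10.8% of those tested. After median ratio scaling, which moved the median change by 0.03, these numbers were 804 and 833. Between adjusted p-values of 0.05 and 0.10 lay 25 more transcripts, 18 higher and 7 lower. The nearest of them read 41.1, 46.8 and 42.9 FPKM in N and 23.7, 23.1 and 17.1 in I3 (adjusted p = 0.0595, limma).

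Calls were spread over levels. By mean level over the 12 libraries, 2 of 2737 transcripts below 2 FPKM were called, 0 of 3284 from 2 to 5 FPKM, 7 of 6058 from 5 to 20, 4 of 2863 from 20 to 100 and 1 of 493 above. The median SE fell from 0.29 in the lowest of these ranges to 0.16 in the highest. Of the 100 most abundant transcripts in N, at 388 FPKM or more, limma called 0, and 14 had an unadjusted p below 0.05. Their median log2 change was -0.12, and 7 had a change of at least 1. Replicates disagreed in the widest of these: it read 32.2, 950 and 857 FPKM in N, 10.6, 18.0 and 39.4 in I3, and 25.9, 8.59 and 984 in C3 (adjusted p = 0.542 for I3 against N, limma). These 100 transcripts held 22.6% of the summed values in N and 22.2% in I3.

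**Figure D4:**
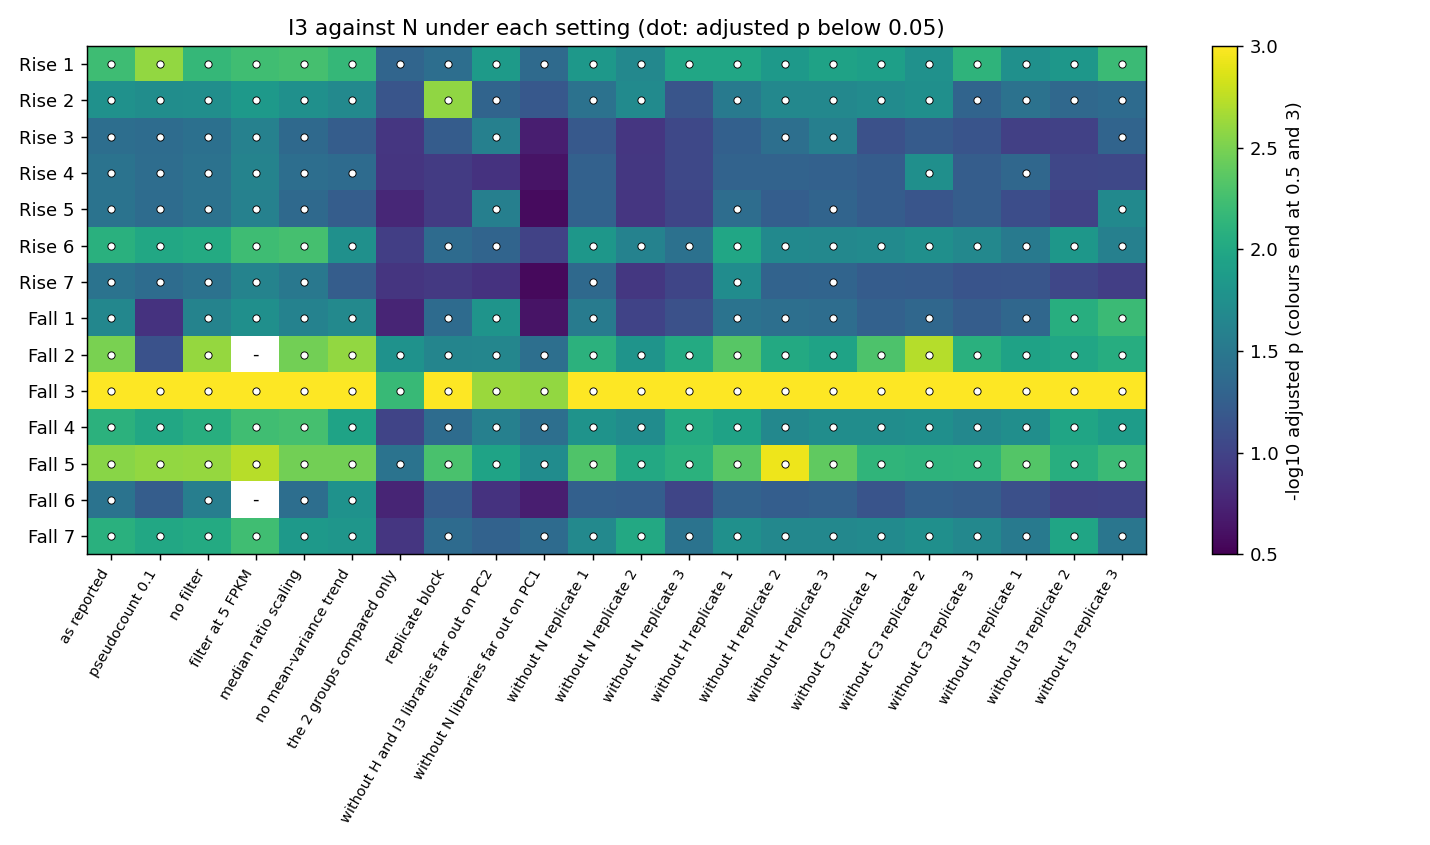
Adjusted p (colour, as -log10) of each of the 14 transcripts in I3 against N, as reported and under 21 alternatives (columns), with a dot where it is below 0.05 and a dash where the filter leaves the transcript out. Rise 1, fall 3 and fall 5 carry a dot in every column, while rises 3, 4, 5 and 7 and fall 6 lose theirs in most of the columns that leave out a library.

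The plot of settings separates the 14 by how firmly they were called. Rise 1, fall 3 and fall 5 were called under all 21 alternatives, with highest adjusted p-values of 0.0488, 0.00658 and 0.0355 in limma, each in the fit of I3 and N alone. Fall 4 was called under 20, fall 2 under 19 of 20, rise 6 and fall 7 under 19, and rise 2 under 18. Fall 1 was called under 14, rises 3 and 5 under 8, rises 4 and 7 under 7 and fall 6 under 3 of 20. No alternative turned the direction of any of the 14.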

How the data were processed

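The submitters' processing notes name cutadapt, HISAT2 2.0.5 and StringTie, with no order or settings, and the human build hg19, which does not match rat Ensembl identifiers. The rat annotation was not given in the sources used here, so no coordinates or sequences are given. Per the labels' protocols, libraries were made from random-primed, fragmented total RNA with a dUTP second strand. The authors deposited one table without a named unit, and its values were taken as FPKM because StringTie is named, although a filtered list in TPM would look alike. Low values down to 1e-06 gave no steps from which whole reads could be recovered (at most 4.9% of ratios fell in one bin of 0.02 log2 units over 66 library pairs), so depth is unknown and no counting interval is given. Transcripts of one gene share reads, which StringTie divides among them by estimation, so a change of one transcript need not be a change of its gene.

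Groups came from the sample titles. Values were used as log2(FPKM + 1) after keeping transcripts with at least 1 FPKM in at least 3 of 12 libraries. Limma 3.58.1 in R 4.3.3 modelled the 4 group means from all 12 libraries, with 8 residual degrees of freedom and a mean-variance trend, and its two-sided p-values were given Benjamini-Hochberg adjustment across the transcripts tested. The script was run on simulated data with normal noise and the same spread for a transcript in all groups. That setting has no outlying libraries, unlike these data, and nothing is read from it here. Exact tests over single values were not used, since 3 against 3 libraries cannot go below p = 0.1.

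The comparison, its alternatives and the rule for named transcripts were chosen with earlier results of these data known. By that rule the 2 largest called rises and falls are named by identifier. Falls 4 and 5 were also named, after their values were seen, because they differed between I3 and H. Rows at 0 in every library of a fit were left out of that fit. Gene lists could not be used without gene names.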

Additional observations from a re-analysis of the deposited data

Results flagged for a closer look

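The effect against N differed between I3 and another chamber group for 2 of the 14 transcripts, by the test of the difference itself. Over all transcripts tested, 0.0324% were called in I3 against H and 0.00648% in I3 against C3. The 14 were chosen with the I3 libraries, so nothing is read from the count of 2. ENSRNOT00000041915 (fall 5) was lower in I3 than in H by a log2 difference of -1.59 and lower than in C3 by -1.56 (adjusted p = 0.00404 and 0.00862, limma), and all 3 I3 libraries were below all 9 others. This arrangement, with I3 lowest, was found in 0.434% of all transcripts tested. Fall 5 was chosen with the I3 libraries, so nothing is read from that share. ENSRNOT00000073643 (fall 4) was lower in I3 than in H by a log2 difference of -1.75 (adjusted p = 0.0437, limma), a call that was lost without any 1 of the H, C3 or I3 libraries or N replicate 1 and under 5 other settings, with adjusted p-values of 0.0536 to 0.205. The difference of fall 5 stayed below 0.05 without any 1 library, and its adjusted p against H was 0.0517 in a fit of I3 and H alone.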

How the results depend on the processing

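The count of 14 for I3 against N lay between 10 and 20 under 8 of the settings that keep all libraries or leave out H replicate 3 and I3 replicate 3 together, and it was 43 without N replicates 2 and 3, where the lone N library is assumed to vary like the other groups. Leaving out single libraries gave 8 to 31 calls, of which 7 to 12 were among the 14. The extremes were 31 when N replicate 1 was left out, 9 when C3 replicate 1 was and 8 when C3 replicate 3 was. Fitting I3 and N alone, with fewer degrees of freedom, gave 16 calls, 4 of them among the 14. Of the 14, 2 differed between I3 and H. This was 3 with the filter at 5 FPKM, where fall 1 passed as well (adjusted p = 0.0482, limma). It was 1 with a pseudocount of 0.1, 1 without the mean-variance trend, 1 with the replicate block and 1 to 2 without single libraries. It was 0 when limma fitted I3 and H alone, a fit that called 22 transcripts in all. In that fit 3 of the 14 had an unadjusted p below 0.05 in limma, against 4 in the main fit. The count of 1 for I3 against C3 was 2 with the filter at 5 FPKM and 2 without H replicate 3 and I3 replicate 3, and 1 to 2 without single libraries. For these changes the cause was not tested. With the replicate block the count for I3 against N was 10, of which 9 were among the 14. Same-numbered libraries deviated together with r of -0.04 to 0.13 over 18 pairs. Of the 12 libraries, 7 correlated best with libraries of their own number, out of 3 numbers. On the second component H replicate 3 and I3 replicate 3 lay at -36.4 and -39.4. Whether libraries of one number shared a batch was not tested, and the main fit used no pairing. Leaving out H or C3 libraries for I3 against N, and libraries of the groups not compared for both differences, was chosen after seeing the data.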
